A study of Mus musculus with 2 samples.

Results

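The genes described are 43 of the 31053 genes counted: 20 that act in S phase, when DNA is copied, and 23 that act in mitosis. They were chosen by symbol from common lists of cell cycle genes, though earlier results of these data were known, and all 43 symbols were found. They were read in single cells of the mouse genital tubercle, the bud of mesenchyme and epithelium from which the penis and clitoris form. The embryos were wild-type C57BL/6 at embryonic day 14.5 (Theiler stage 22). One library held the pooled tubercles of 3 male embryos and the other those of 3 female embryos, drawn from 2 litters. Each sex is thus 1 sample, embryos within a pool cannot be told apart, and sex cannot be told apart from library. No test was made between the sexes or between groups of cells, since cells of 1 library are not replicates.

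Barcodes were taken as cells from 2000 unique molecular identifiers upward (UMIs, which mark single captured RNA molecules), where 500 genes or more were seen and mitochondrial UMIs made up no more than 10%. This gave 17254 male and 18711 female cells, with medians of 5169.5 and 5242 UMIs. Of the barcodes, 82 served as a cell in both libraries, against 47.5 expected from their numbers. Clustering on 1862 genes that excluded the members and the other cell cycle genes gave 25 clusters, of which 18 were mesenchyme-like. These mesenchyme cells numbered 16292 male and 17974 female. They fell into 8 named domains and 4 numbered clusters, each domain called by marker genes among its leading genes. Every cell was thinned at random to 2000 UMIs, and a level below is the mean number of UMIs of a list or gene per cell at that depth. Intervals are exact Poisson or binomial 95% intervals that cover counting error only, and for list sums they are too narrow, since UMIs of 1 cell are not independent.

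A dividing cell copies its DNA in S phase and separates the copies in mitosis, and each step uses proteins whose genes are transcribed in a wave shortly before. S phase genes such as the Mcm helicase subunits are known targets of E2F transcription factors, which the retinoblastoma proteins hold in check until cyclin D and cyclin E kinases release them. Mitosis genes such as cyclin B and the Aurora kinases are known to be driven later by B-Myb and FoxM1, through the cell cycle genes homology region (CHR). Promoters of such genes are also known to carry CCAAT boxes. Outgrowth of the tubercle is known to depend on growth of its mesenchyme.

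To show both promoter types, stretches of 180 bases before the RefSeq start site of the GRCm38.p6 build are printed for 5 members, 5′ to 3′ on the gene's strand. They are the 2 S phase genes with an E2F word in the stretch and, of the mitosis genes with a CHR word in it, the last 3 in the co-detection order below. Stretches that reached into the GENCODE gene were passed over. Capitals mark the words found. The E2F words were TTTGGCGC, TTTCCCGC, TTTGCCGC and TTTCGCGC, the CHR words TTTGAA and TTCGAA, and the CCAAT box was CCAAT, each searched on both strands.
Mcm6 (helicase subunit, chr1:128359706-128359885, minus strand): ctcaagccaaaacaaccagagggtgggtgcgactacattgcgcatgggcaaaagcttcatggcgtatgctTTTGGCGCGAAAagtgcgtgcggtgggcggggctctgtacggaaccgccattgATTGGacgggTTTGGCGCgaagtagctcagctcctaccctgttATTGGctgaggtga
Mcm5 (helicase subunit, chr8:75109329-75109508, plus strand): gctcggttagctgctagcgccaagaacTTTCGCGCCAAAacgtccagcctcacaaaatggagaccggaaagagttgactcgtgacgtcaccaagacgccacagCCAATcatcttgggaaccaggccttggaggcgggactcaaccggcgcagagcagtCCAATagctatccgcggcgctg
Mki67 (the proliferation antigen Ki-67, chr7:135716380-135716559, minus strand): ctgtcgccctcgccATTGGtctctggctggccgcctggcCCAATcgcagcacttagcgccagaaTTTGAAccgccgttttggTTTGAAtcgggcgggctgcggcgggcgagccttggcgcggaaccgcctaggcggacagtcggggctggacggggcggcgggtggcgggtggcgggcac
Kif11 (the spindle motor Eg5, chr19:37376202-37376381, plus strand): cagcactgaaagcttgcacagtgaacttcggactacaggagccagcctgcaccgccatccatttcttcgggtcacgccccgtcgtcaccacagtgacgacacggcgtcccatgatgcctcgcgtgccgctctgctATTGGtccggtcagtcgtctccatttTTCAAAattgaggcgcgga
Ccnb2 (cyclin B2, chr9:70421555-70421734, minus strand): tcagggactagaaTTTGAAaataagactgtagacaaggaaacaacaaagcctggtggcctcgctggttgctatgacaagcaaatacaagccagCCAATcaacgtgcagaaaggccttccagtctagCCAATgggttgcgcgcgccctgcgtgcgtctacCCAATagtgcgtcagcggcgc

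Of the members, 37 had a promoter window in the RefSeq table of the GRCm38.p6 build (17 S phase and 20 mitosis genes). Over windows of 300 bases, an E2F word stood in 7 of 17 S phase genes (41.2%) and in 1 of 20 mitosis genes (Cdk1, 5%). It stood in 2.61% of all 27025 genes of the table and in 4.96% of those with at least 100 mesenchyme UMIs. A CHR word stood in 15 of 20 mitosis genes (75%) and 4 of 17 S phase genes (23.5%), beside 21.7% of all genes and 15.9% of the expressed ones. At least 2 CCAAT boxes stood in 14 mitosis genes (70%) and 9 S phase genes (52.9%), beside 13.3% and 17.4%. E2F words on opposite strands overlap each other in Mcm6 and Mcm5. A word match is a description of the letters and no evidence of binding.

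The members differed widely in level. Among S phase genes, Nasp, a chaperone that carries histones, gave 26.6% of the list's mesenchyme UMIs, at 1.26 UMIs per cell in the male library and 1.42 in the female one. Dut, which keeps uracil out of DNA, followed with 0.442 in both libraries. Slbp, which binds histone mRNA, had 0.363 and 0.418, and Mcm7, a subunit of the replicative helicase, 0.271 and 0.296. The lowest were Cdc6, which loads that helicase (0.0264 and 0.0314), Ung, which removes uracil (0.0427 and 0.0473), and Cdc45, which activates the helicase (0.0549 and 0.0562). Among mitosis genes, Hmgb2, a chromatin protein, alone gave 31.1% of the list's UMIs, at 2.79 and 2.82. Top2a, which untangles DNA, had 0.707 and 0.831. Ube2c, an enzyme that marks mitotic cyclins for destruction, had 0.677 and 0.719, and Cks2, a small partner of Cdk1, 0.643 and 0.643. Plk1, a kinase of mitotic entry, was lowest with 0.0710 and 0.0781. A member was thus seen in between 2.48% (Cdc6) and 70.5% (Hmgb2) of male mesenchyme cells. No member shared its strand with an overlapping gene.

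Co-detection, that is, which members were found in the same cells, split the lists without exception. On the first axis of the correlations of detection in 34266 mesenchyme cells, all 43 members lay on the side of their own list in each library, after the rate of each cluster and library was taken off. The first axis held 17.2% and the second 6.53% of the variance. All 190 pairs of S phase genes and all 253 pairs of mitosis genes correlated above 0. The median correlation was 0.27 between mitosis genes, 0.073 between S phase genes and -0.006 across the lists. All are descriptions, since the genes share cells and depth.

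Read by angle around both axes, the order began with a group that holds the Mcm helicase subunits. Mcm2 stood at -15.3 degrees, followed by Ung, Mcm4, Mcm6, Gins2, Mcm3, Hells, Mcm5, Cdc6, Mcm7 and the sliding clamp Pcna. Then came Rfc2, Slbp, Dut, Rrm2, Cdc45, Uhrf1, Nasp, Tyms and, at 18.2 degrees, Rrm1, a group that holds nucleotide enzymes (Dut, Rrm1, Rrm2, Tyms) and histone handling genes (Slbp, Nasp). A gap led to Hmgb2 at 41.3 and Top2a at 53.4 degrees, both chromosome proteins. The kinase Cdk1, the chromosomal passenger kinase Aurkb, cyclin A2 (Ccna2) and Mki67 came next, and then Bub1, Birc5, Kif11, Cks2, Nusap1, Bub1b, Plk1, Ube2c, Hmmr, Cenpe, Cenpf and Tpx2. The order ended with Aurka, cyclin B1 (Ccnb1), the anaphase activator Cdc20, cyclin B2 (Ccnb2) and the centromeric histone Cenpa at 120 degrees. The order of the 43 genes had a Spearman rho of 0.998 between the libraries, and no gene moved by more than 2 places. Genes of the other lists were set on the same plane. The E2F target Tk1 lay at 13.0 degrees among the S phase genes, cyclin E1 (Ccne1) at -3.59 and cyclin E2 (Ccne2) at -1.32, and the spindle gene Prc1 at 88.9 degrees. Cyclin D2 (Ccnd2) at -90.4 and cyclin D1 (Ccnd1) at -58.7 degrees lay before every member. Genes that restrain the cycle were spread around the circle, from Btg2 at -153 to Gadd45g at 158 degrees. Cdkn1c lay at -152 and Btg1 at -146 degrees, while Cdkn1b at 106 and Ccng2 at 109 degrees lay among the mitosis genes. The angle is circular, so Cdkn1c and Btg1 can be read as before or after the members. Ccnd1, Ccnd2, these restraining genes and both cyclin E genes lay closer to the origin than any member.

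**Figure D1:**
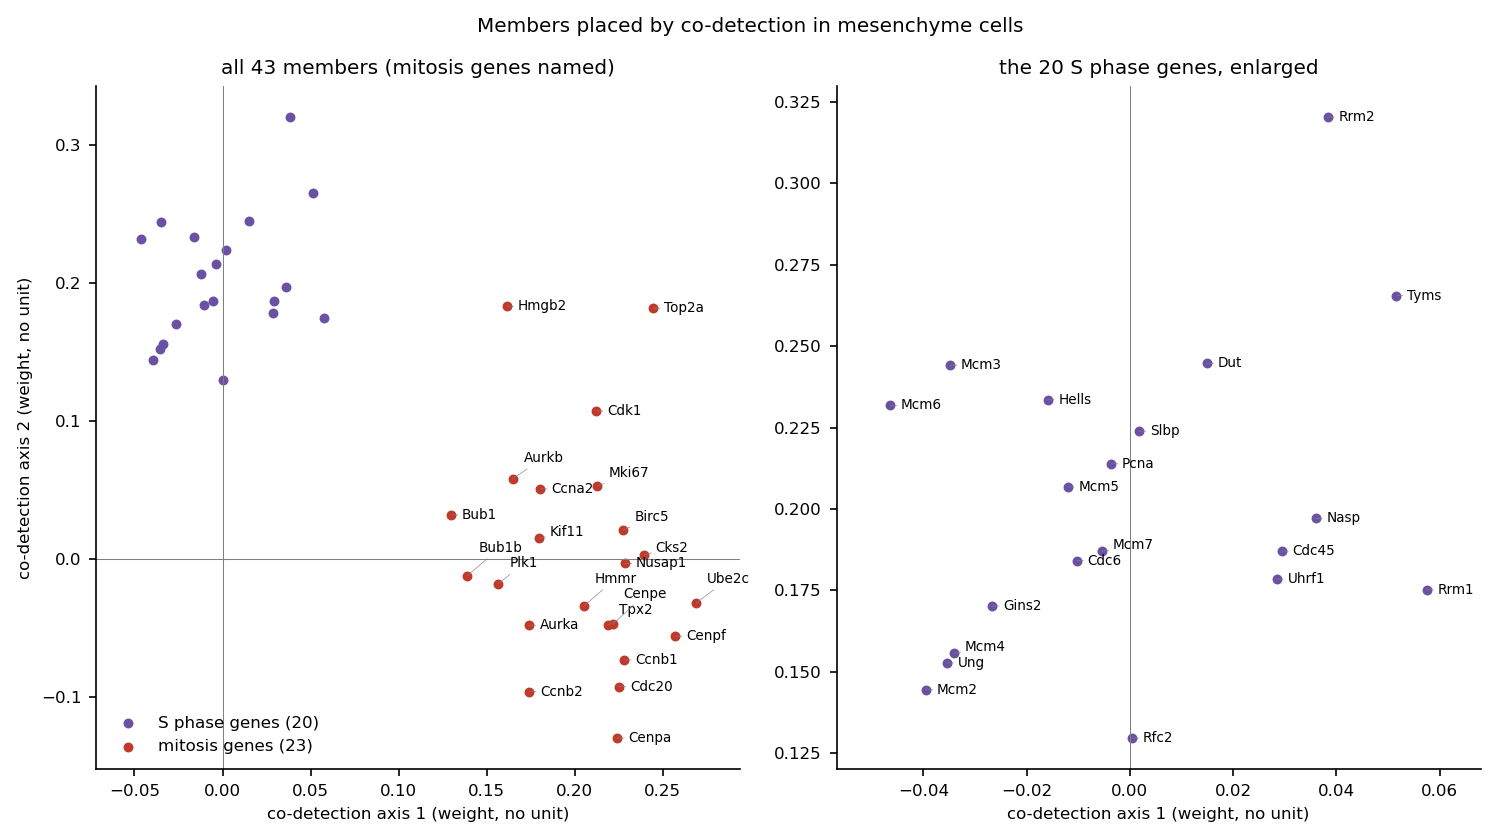
Weights of the 43 members on the first 2 co-detection axes in mesenchyme cells of both libraries (no unit), with the S phase genes enlarged on the right. All S phase genes lie left of all mitosis genes on axis 1, and Hmgb2 and Top2a are the mitosis genes highest on axis 2.

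Late mitosis genes were found together more often than their separate rates give, by the widest margins. Aurka and Hmmr were both seen in 437 male cells, against 117.8 expected, and in 552 female cells, against 162.7. Plk1 with Hmmr was seen in 385 cells against 103.5, and in 439 against 140.7. Ccnb1 with Aurka was seen in 534 against 145.8, and in 693 against 218.0. The pairs Aurka with Plk1 (236 against 68.4, and 327 against 99.8) and Ccnb1 with Plk1 (461 against 127.5, and 595 against 188.3) completed the 5 highest. Among S phase pairs, Ung with Cdc6 stood highest, with 51 cells against 16.9 and 81 against 24.2. The pairs seen together least all paired Ung with a late mitosis gene. Ung with Aurka was seen in 11 male cells against 44.7 expected and in 19 female cells against 63.5. Ung with Ccnb2 was seen in 26 against 85.8 and 35 against 110.7, and Ung with Hmmr in 21 against 68.0 and 28 against 89.7. Of the 903 pairs, 232 were seen together less often than expected in both libraries, and all 232 crossed the lists.

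In the mesenchyme as a whole, S phase genes gave 4.82 UMIs per cell in the male library and 5.28 in the female one, and mitosis genes 8.67 and 9.36. Counts of mitosis genes were spread unevenly. No mitosis UMI was seen in 17.3% of male and 14.4% of female mesenchyme cells, while 30.4% and 33.3% had at least 10. That limit of 10 was chosen after the distribution was seen, and 6.55% and 7.57% of cells had 8 to 11. Cells with at least 10 had more S phase UMIs (5.83 against 4.37 in the male library and 5.89 against 4.98 in the female one). This did not hold in every group: in Rprm and Spock3 they had fewer (6.47 against 6.74 and 6.41 against 7.02), as they did in the female Foxd1 and Sall3, cluster 14 and cluster 8 cells. The cells with at least 10 also held more UMIs in all, with medians of 6895 against 4557 UMIs and 6999.5 against 4518, and more of them were among the highest doublet scores (20.5% against 9.78% and 21.2% against 11.2%). The part of doublets in these values was not tested.

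The mesenchyme domain called Rprm and Spock3 had the highest S phase level of the 12 mesenchyme groups in both libraries, with 6.63 and 6.75 UMIs per cell. Its mitosis level was 11.2 and 12.03, second to that of cluster 12 (13.8 and 13.8), a small cluster of 286 male and 573 female cells led by Rspo3. Next in mitosis level among named domains stood distal Dlx2 and Runx1 (10.2 and 9.92) and Foxd1 and Sall3 (9.62 and 10.3). Their S phase levels were 5.03 and 5.43, and 5.31 and 5.75. Cluster 14 was near them with 9.47 and 10.2 mitosis and 5.40 and 5.98 S phase UMIs. Cluster 8 had 10.0 and 10.3 mitosis UMIs, but 96.1% and 93.7% of its cells were among the highest doublet scores.

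At the other end, 5 groups lay close together and changed places between libraries. Ogn and Foxf1 had the lowest S phase level over both libraries (4.16 and 4.49) and mitosis levels of 6.80 and 8.11. Scx and Sox9, named for a tendon and a cartilage factor, had the lowest mitosis level of the named domains over both (7.14 and 7.67) and S phase levels of 4.04 and 4.72. Distal Msx2 had 4.02 and 4.76 S phase and 7.05 and 8.01 mitosis UMIs. Aldh1a2 and Tcf21 had 4.24 and 4.80, and 6.97 and 8.59. Cluster 13 had 4.23 and 5.08, and 6.56 and 7.96. Neighbours in this order differed by less than the libraries differed from each other, and no group of the 5 was lowest in both lists and both libraries. Sim1 and Tbx15 lay above these 5 groups in the male library, with 5.05 S phase and 8.76 mitosis UMIs. In the female library it lay among them, with 4.88 (below cluster 13) and 8.28 (below Aldh1a2 and Tcf21).

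**Figure D2:**
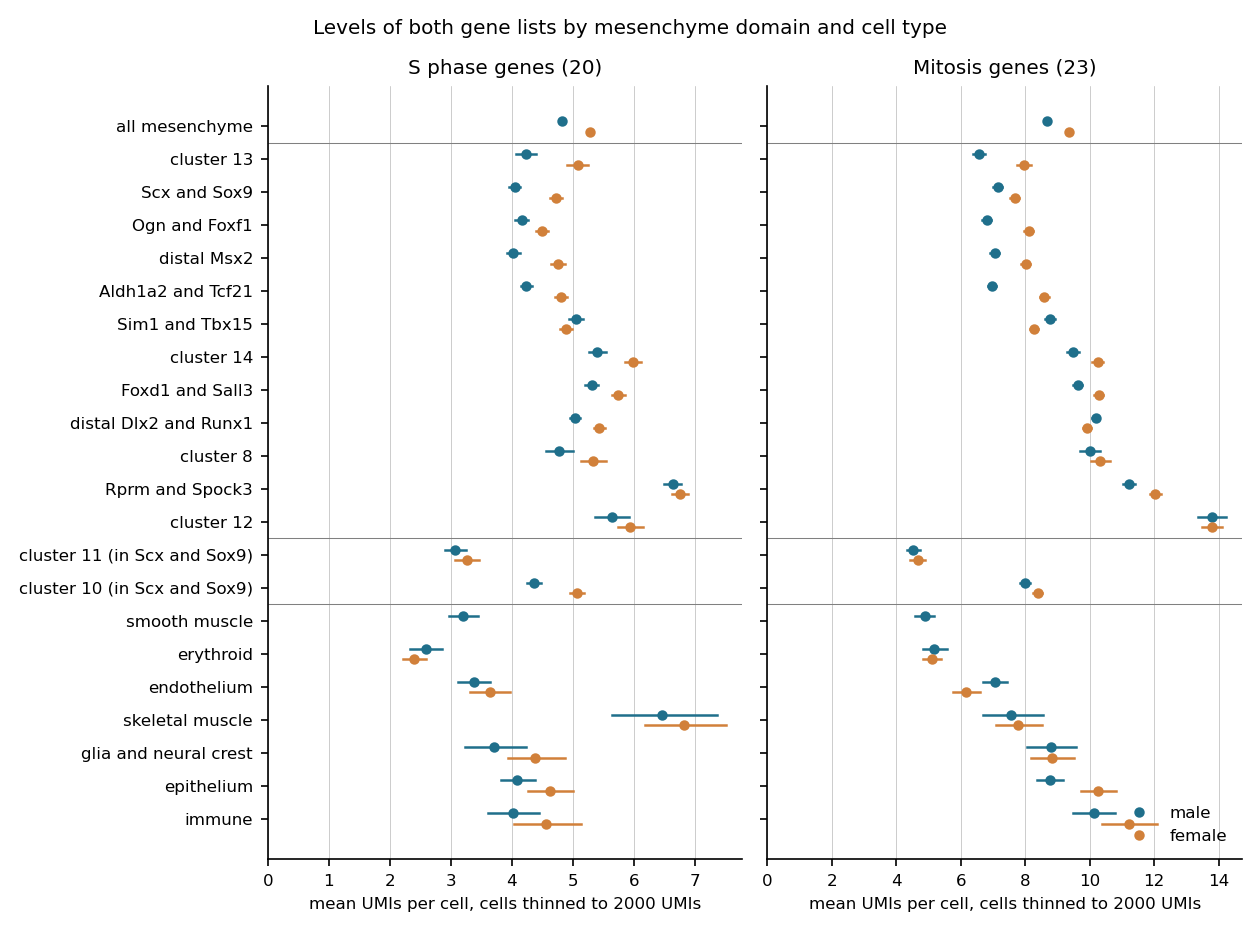
Mean UMIs per cell of the S phase list (left) and the mitosis list (right) in cells thinned to 2000 UMIs, by mesenchyme group and cell type, with exact Poisson 95% intervals (groups under 30 cells not drawn). Rprm and Spock3 is highest in S phase genes in both libraries, cluster 12 highest in mitosis genes, and cluster 11 lies left of every mesenchyme group on both sides.

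Outside the mesenchyme, immune cells had mitosis levels of 10.1 and 11.2 and epithelium 8.76 and 10.3, with S phase levels of 4.01 and 4.56, and 4.09 and 4.62. Glia and neural crest cells had 8.80 and 8.84 mitosis UMIs. Endothelium had 7.05 and 6.16, with 3.37 and 3.63 S phase UMIs. Skeletal muscle precursors had the highest S phase level of any class (6.46 and 6.82) with 7.57 and 7.79 mitosis UMIs, from 35 and 61 cells. Male smooth muscle-like cells (224) were low in both lists, with 3.20 and 4.88. The female library held 8 such cells, too few to compare. Erythroid cells gave 2.59 and 2.40 S phase and 5.18 and 5.10 mitosis UMIs. Haemoglobin took 44.8% and 43.7% of their UMIs. Per 2000 other UMIs and without thinning, their mitosis level was 9.83 and 10.7, beside 10.8 and 11.6 in mesenchyme. Cells of these classes held more UMIs than mesenchyme cells, with median UMIs from 6919 (female epithelium) to 18215 (male skeletal muscle) in classes of over 30 cells.

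Thinning did not remove the link between depth and mitosis genes. In male mesenchyme, the mitosis level was 3.69 in cells of 2000 to under 4000 UMIs, 8.49 in cells of 4000 to under 8000 and 15.9 in cells of 8000 or more, before thinning. The female values were 3.88, 9.80 and 14.7. S phase genes did not follow it in the deepest cells, with 3.096, 5.43 and 5.28 in the male library and 3.54, 6.03 and 5.596 in the female one. These ranges of depth were chosen after the levels were seen. The domains differed in depth: 41.5% and 46.2% of Ogn and Foxf1 cells had under 4000 UMIs, and 48.1% and 49.8% of distal Msx2 cells. Only 7.38% and 10.0% of Sim1 and Tbx15 cells did.

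Within 1 range of depth the lowest places changed hands. In cells of 4000 to under 8000 UMIs, Ogn and Foxf1 had 8.93 and 11.5 mitosis UMIs, which put it at place 8 and 9 from the lowest of 12. Scx and Sox9 had 7.86 and 8.36, at place 7 and 6. Sim1 and Tbx15 had 5.63 and 6.30 at place 3 and 2, and cluster 13 had 4.84 and 7.07 at place 2 and 3. In this range the high end was cluster 12 (15.02 and 15.6) and Rprm and Spock3 (12.9 and 14.9) at places 12 and 11, and Rprm and Spock3 had the highest S phase level (7.56 and 7.72). In cells of 2000 to under 4000 UMIs the mitosis places were 7 and 8 for Rprm and Spock3 (4.76 and 5.07) and 9 and 10 for cluster 12 (5.77 and 5.48). In the male cells of 8000 or more UMIs, the S phase level of Rprm and Spock3 was 5.42, at place 8.

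**Figure D3:**
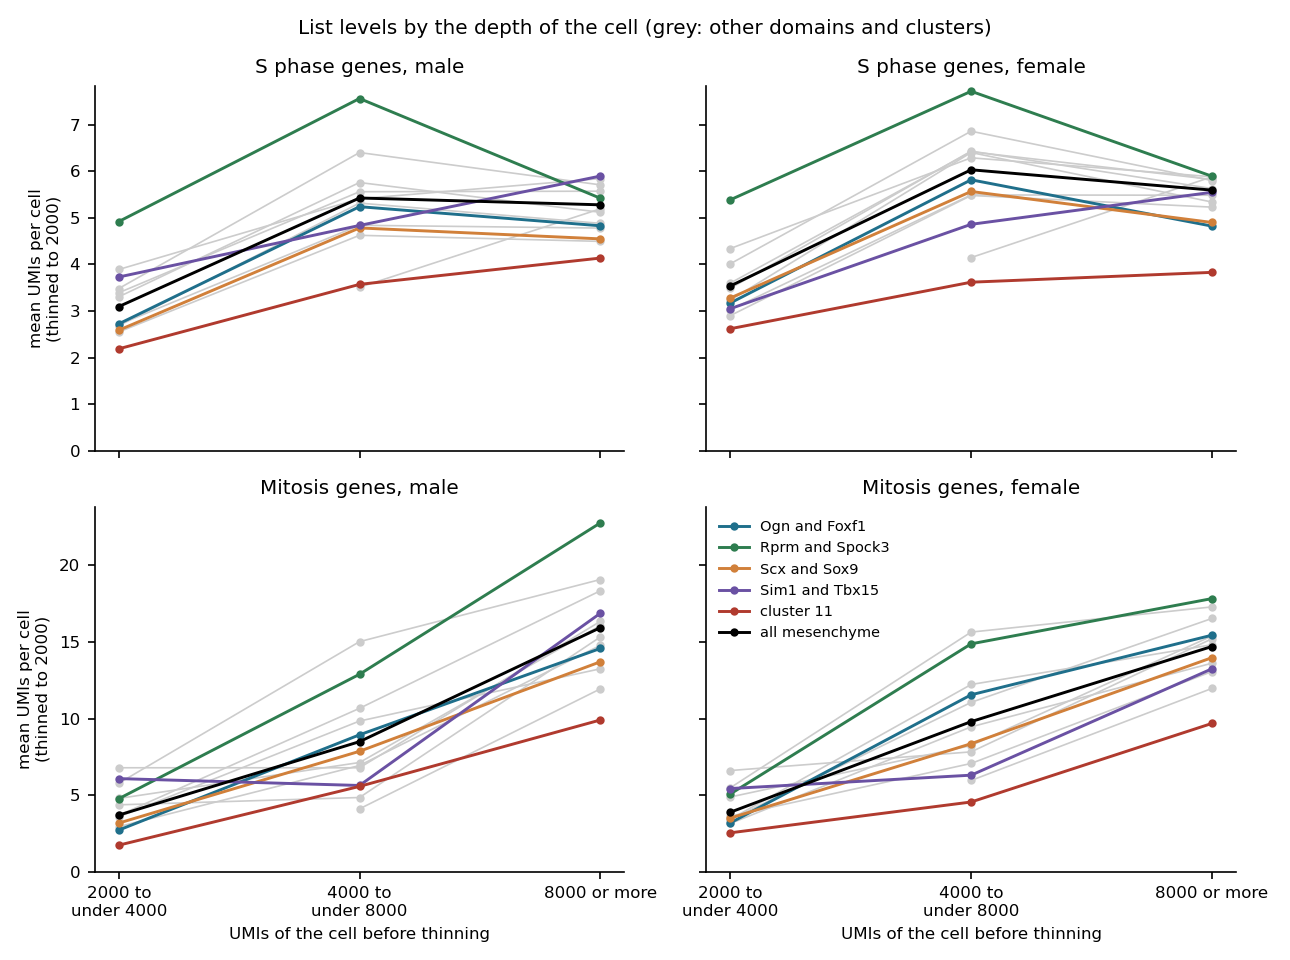
Mean UMIs per cell of both lists after thinning to 2000, by the cell's UMIs before thinning (3 ranges), one line per mesenchyme group with at least 30 cells in a range. All mesenchyme rises from 3.69 to 15.9 mitosis UMIs in the male library and from 3.88 to 14.7 in the female one, and cluster 11 is low at each range.

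Within the mesenchyme, the cluster with the fewest transcripts of both lists lay inside the Scx and Sox9 domain. Cluster 11, with 424 male and 333 female cells led by Sox9, Scx, En1, Sox6 and the cartilage collagen Col2a1, was picked after the levels of all clusters were seen. It had 3.07 and 3.26 S phase UMIs per cell, against 4.86 and 5.32 in all other mesenchyme, and 4.51 and 4.66 mitosis UMIs, against 8.78 and 9.44. On the log2 scale it lay at -0.66 and -0.71 for S phase and at -0.96 and -1.02 for mitosis genes. At least 10 mitosis UMIs were seen in 13.4% (exact 95% interval 10.3 to 17.1) of its male and 14.4% (10.8 to 18.7) of its female cells. For S phase genes that share was 2.83% and 2.70%. The other cluster of the domain, cluster 10, had 7.998 and 8.38 mitosis and 4.36 and 5.06 S phase UMIs. Without cluster 11, the domain lay at -0.17 and -0.08 for S phase and -0.15 and -0.19 for mitosis genes against other mesenchyme.

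Cluster 11 was low at each depth. Its median UMIs were 4292.5 and 4281, and 4.48% and 5.71% of its cells were among the highest doublet scores. In cells of 2000 to under 4000 UMIs it had 1.73 and 2.54 mitosis UMIs against 3.78 and 3.92 in other mesenchyme. In cells of 4000 to under 8000 it had 5.57 and 4.55 against 8.55 and 9.88, and in cells of 8000 or more 9.90 and 9.68 against 16.0 and 14.8. It was below all 12 groups at each range in both lists, except among male cells of 4000 to under 8000 UMIs, where clusters 8 (4.10) and 13 (4.84) had fewer mitosis UMIs and cluster 8 (3.51) fewer S phase UMIs than cluster 11 (3.57).

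**Figure D4:**
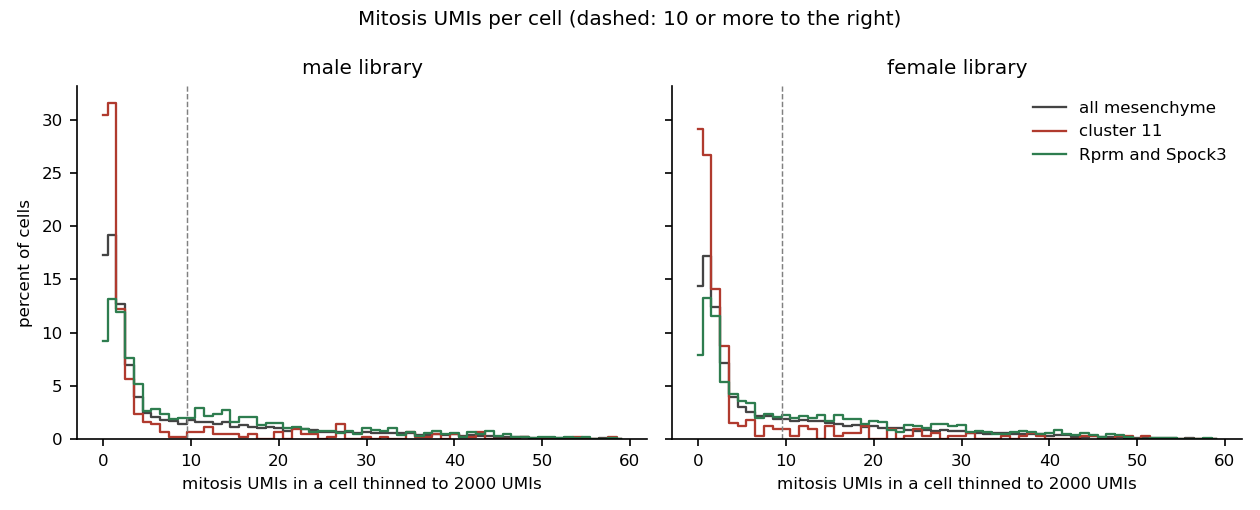
Share of cells (percent) by the number of mitosis UMIs in a cell thinned to 2000 UMIs, for all mesenchyme, cluster 11 and the Rprm and Spock3 domain, with 60 or more not drawn. Cells of cluster 11 pile up at 0 and 1 UMI, and 13.4% and 14.4% of them lie right of the dashed line.

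In cluster 11 all 43 members had a lower level than in other mesenchyme in both libraries. The cluster was picked for the lowest sums of these same members, so low member ratios follow in part from the pick. Of the S phase genes, 12 of 20 in the male library and 13 of 20 in the female one were at least 1.5-fold lower, and of the mitosis genes 21 and 20 of 23. Of all 11875 genes with at least 100 mesenchyme UMIs, 18.9% and 20.6% were that much lower, and of the 7191 genes with at least as many UMIs as Cdc6, the scarcest member, 12.8% and 13.6%. The median log2 ratio was -0.73 and -0.70 for S phase and -0.92 and -1.05 for mitosis genes, beside -0.03 and -0.04 for all genes. Cdc6 was nearly absent, with 2 male and 3 female UMIs in all of the cluster. Pcna stood at 0.0519 and 0.0571 UMIs per cell (log2 -1.03 and -1.07). Uhrf1, which maintains DNA methylation, stood at 0.0542 and 0.0691 (-1.28 and -1.13), and Tyms, which makes thymidylate, at 0.167 and 0.0961 (-0.76 and -1.46). Cdc45 differed between libraries, with 4 male and 14 female UMIs (-2.57 and -0.43). The smallest S phase ratios were those of Rfc2 (-0.30 and -0.30), Ung (-0.18 and -0.53) and Mcm4 (-0.44 and -0.52). Of the mitosis genes, Aurkb stood at 0.0283 and 0.0511 UMIs per cell (-2.01 and -1.25) and Ube2c at 0.262 and 0.3003 (-1.39 and -1.28). The checkpoint kinase Bub1 had ratios of -0.99 and -1.68, Cdc20 of -0.92 and -1.44, and the spindle protein Nusap1 of -1.001 and -1.29. Plk1 (-0.84 and -0.18), the kinetochore motor Cenpe (-0.50 and -0.67) and Cenpa (-0.75 and -0.45) differed least.

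The regulators around the members did not all follow them in cluster 11. Of 27 other genes of G1/S and replication, 19 male and 21 female were at least 1.5-fold lower, and of 51 other G2 and mitosis genes, 35 and 41. Of 13 drivers of cycle entry, 7 and 9 were. Of all genes with at least 100 mesenchyme UMIs, 18.9% and 20.6% were that much lower. Ccnd1 had 0.0731 UMIs per cell against 0.333 in other mesenchyme, and 0.0781 against 0.392 (log2 -2.19 and -2.33). Mycn, a growth-promoting transcription factor, stood at -3.21 (counting interval -6.26 to -1.36) and -2.47 (-4.75 to -0.91). Ccnd2 (-0.40 and -0.77) and the cyclin D partner Cdk4 (-0.42 and -0.26) differed less, so the cluster still held 0.767 and 0.652 Ccnd2 UMIs per cell. Of 17 measured inhibitors and exit genes, 2 and 4 were lower by 1.5-fold, near the share of all genes (18.9% and 20.6%). Higher by 1.5-fold were 2 and 1, where 13.3% and 13.5% of all genes were. The median log2 ratio of the 17 was -0.12 and 0.01. The cyclin-dependent kinase inhibitor Cdkn1c (p57) stood at 1.47 against 1.22 and at 1.31 against 1.05 (0.26 and 0.32). The atypical cyclin Ccng2 (0.61 and 0.53), the anti-proliferative gene Btg1 (0.44 and 0.51) and the retinoblastoma relative Rbl2 (0.62 and 1.61) were also above other mesenchyme, Rbl2 at only 0.0307 and 0.0541 UMIs per cell. The inhibitor Cdkn1b differed by 0.05 and 0.08. Below other mesenchyme were the stress gene Gadd45g (-1.29 and -1.14) and the inhibitor Cdkn2d (-0.48 and -1.01). The inhibitor Cdkn1a was scarce, with ratios of -1.66 (counting interval -6.97 to 0.85) and -1.26 (-6.58 to 1.24).

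The high end of the mesenchyme took 2 forms. Both groups were picked for high sums of these same members, so high member ratios follow in part from the pick. In the Rprm and Spock3 domain, named for a gene of cell cycle arrest, reprimo, all 43 members were above other mesenchyme in each of the libraries, with small and even ratios. Rprm itself correlated with the S phase sum over all cells (r = 0.161) and was 1 of 39 variable genes left out of the clustering for a correlation above 0.15 with either list, while Spock3 (0.0812) and the third marker, Pcdh10 (0.107), were kept. By 1.5-fold, 5 male and 2 female S phase genes and no mitosis gene were higher, where 4.61% and 3.38% of all genes were, and 2.52% and 1.81% of genes at least as abundant as Cdc6. The median log2 ratio was 0.55 and 0.40 for S phase and 0.40 and 0.40 for mitosis genes, beside -0.07 and -0.07 for all genes. Rrm2, a subunit of the enzyme that makes deoxynucleotides, stood at 0.419 and 0.468 UMIs per cell (log2 0.83 and 0.66). Mcm5 stood at 0.279 and 0.255 (0.86 and 0.52), Cdc6 at 0.0416 and 0.0484 (0.73 and 0.70), Cdc45 at 0.0904 and 0.0783 (0.80 and 0.53) and Pcna at 0.149 and 0.164 (0.56 and 0.52). Rfc2 (0.20 and 0.10), Gins2 (0.24 and 0.21) and Dut (0.38 and 0.14) differed least. Of the mitosis genes, Aurkb (0.51 and 0.50), Top2a (0.52 and 0.48), Ube2c (0.47 and 0.50), Cdk1 (0.49 and 0.45) and the spindle factor Tpx2 (0.40 and 0.53) differed most. The inhibitors and exit genes did not all go 1 way. Cdkn2c was higher there (0.53 and 1.01), at 0.0128 and 0.0134 UMIs per cell. The scarce Cdkn1a (-2.28 and -3.60) and Btg2 (-1.03 and -1.44) were lower. Cdkn1c had 0.480 UMIs per cell against 1.29, and 0.512 against 1.11 (-1.43 and -1.11). Ccnd1 was also low there, with 0.166 against 0.339 and 0.148 against 0.409 (-1.03 and -1.47).

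Cluster 12 stood out in mitosis genes and less so in S phase genes, with 5.64 and 5.94 S phase UMIs per cell against 4.80 and 5.26 in other mesenchyme. At least 1.5-fold higher were 20 male and 16 female mitosis genes and no S phase gene, where 10.4% and 6.91% of all genes were, and 6.01% and 3.43% of genes at least as abundant as Cdc6. The median log2 ratio was 0.76 and 0.66 for mitosis and 0.17 and 0.10 for S phase genes. Aurka, the centrosome kinase, stood at 0.154 and 0.162 UMIs per cell (0.99 and 0.83), Plk1 at 0.136 and 0.129 (0.97 and 0.76) and Top2a at 1.28 and 1.36 (0.87 and 0.75). Tpx2 (0.94 and 0.66) and Mki67 (0.91 and 0.61) completed the 5 largest, and Hmgb2 (0.57 and 0.45), Ccnb2 (0.60 and 0.46) and Cenpa (0.38 and 0.59) were the smallest. Of the 51 other G2 and mitosis genes, 25 and 26 were at least 1.5-fold higher, among them the kinetochore kinase gene Ttk (0.98 and 0.89) and the kinetochore gene Nuf2 (1.04 and 0.98). The share of its cells among the highest doublet scores was 18.5% and 23.4%, beside 13.0% and 14.5% in all mesenchyme, and its part in the result was not tested.

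The 2 named domains with the lowest list sums differed little gene by gene. They were picked by those sums, so low member ratios follow in part from the pick. In Ogn and Foxf1, 2 male and 3 female S phase genes and 4 and 0 mitosis genes were at least 1.5-fold lower, where 9.43% and 8.08% of all genes were, and 4.35% and 3.7% of genes at least as abundant as Cdc6. Cdc45 stood at 0.0271 and 0.0357 UMIs per cell (log2 -1.09 and -0.71), Rrm2 at 0.186 and 0.214 (-0.46 and -0.59) and Uhrf1 at 0.0999 and 0.101 (-0.41 and -0.63). Among mitosis genes, Ccna2 (-0.66 and -0.31) and Bub1 (-0.61 and -0.43) were lowest. Mcm6 stood at 0.220 and 0.231, with ratios of 0.09 and -0.06. In Scx and Sox9, cluster 11 included, 2 and 0 S phase genes and 1 and 1 mitosis genes were that much lower, where 9.49% and 9.47% of all genes were, and 4.24% and 4.2% of those as abundant as Cdc6. Top2a stood at 0.530 and 0.588 (-0.46 and -0.55), Aurkb at 0.0745 and 0.0945 (-0.64 and -0.38) and Mki67 at 0.212 and 0.270 (-0.43 and -0.33). Most members lay below other mesenchyme by less than 1.5-fold in these 2 domains, with median log2 ratios from -0.17 (female S phase genes of Scx and Sox9) to -0.40 (male mitosis genes of Ogn and Foxf1), beside -0.01 to 0.03 for all genes. Ccnd1, the cyclin D1 gene, was low in both domains. It had 0.0971 UMIs per cell against 0.348 and 0.120 against 0.414 in Ogn and Foxf1 (-1.84 and -1.78), and 0.0948 against 0.353 and 0.103 against 0.417 in Scx and Sox9 (-1.90 and -2.02). Low Ccnd1 was not particular to them. In cluster 12, with the highest mitosis level, it had 0.108 against 0.330 and 0.152 against 0.394 (-1.61 and -1.38). It was also low in Rprm and Spock3 (-1.03 and -1.47).

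**Figure D5:**
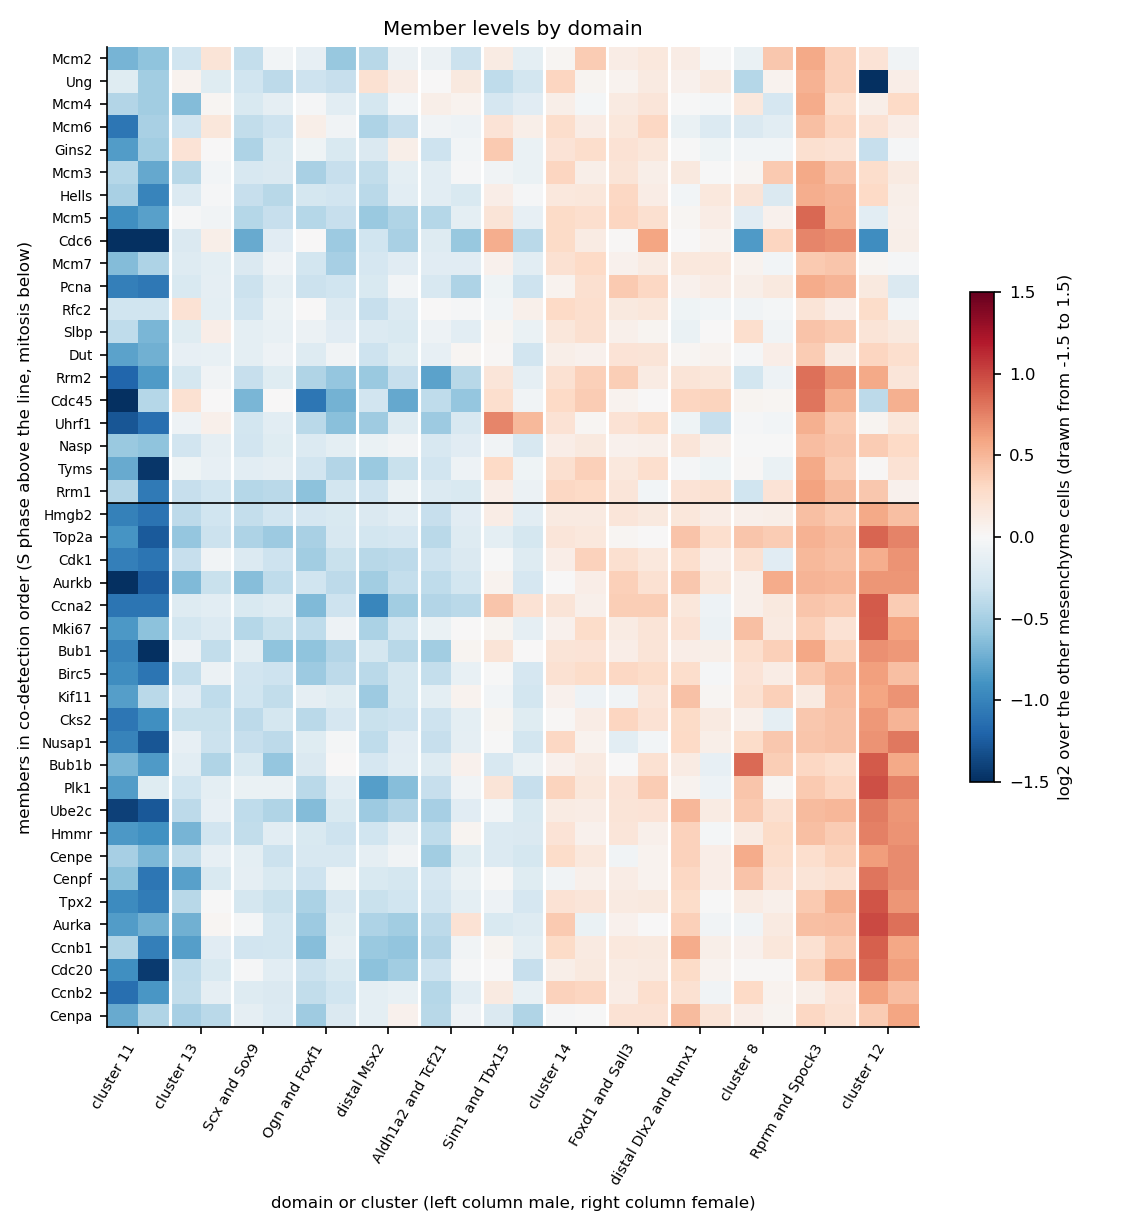
Log2 ratio of each member's level in a mesenchyme group to that in all other mesenchyme cells (colour, from -1.5 to 1.5), members in co-detection order, male left and female right within each group. Cluster 11 is blue for all 43 members, Rprm and Spock3 is red for all 43, and cluster 12 is red for the mitosis genes.

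Over the 8 named domains, the members with the most UMIs were mostly highest in Rprm and Spock3, while their lowest domain varied. Nasp ranged from 1.05 (Scx and Sox9) to 1.70 (Rprm and Spock3) UMIs per cell in the male library and from 1.23 (Sim1 and Tbx15) to 1.84 (Rprm and Spock3) in the female one. Hmgb2 ranged from 2.23 to 3.70 and from 2.36 to 3.61, in both libraries from Scx and Sox9 to Rprm and Spock3. Top2a ranged from 0.518 (Ogn and Foxf1) to 0.979 and from 0.588 (Scx and Sox9) to 1.12, with Rprm and Spock3 highest. Ube2c ranged from 0.444 (Ogn and Foxf1) to 0.912 and from 0.541 (distal Msx2) to 0.981. Cks2 ranged from 0.495 (Ogn and Foxf1) to 0.832 and from 0.525 (distal Msx2) to 0.849. Slbp ranged from 0.319 to 0.475 and from 0.360 to 0.535, in both libraries from distal Msx2. Mcm7 ranged from 0.228 to 0.348 and from 0.216 to 0.384, in both libraries from Ogn and Foxf1. All of these were highest in Rprm and Spock3. Dut ranged from 0.362 (distal Msx2) to 0.562 in the male library, with the same domain highest. In the female library it ranged from 0.371 (Sim1 and Tbx15) to 0.496 (Foxd1 and Sall3).

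The male library was slightly lower than the female one in both lists. Over mesenchyme cells the log2 ratio of male to female was -0.13 for S phase and -0.11 for mitosis genes. Of the members, 17 of 20 and 22 of 23 were below 0, where 56.7% of all genes were, and 62.4% of those as abundant as Cdc6. None was past a log2 ratio of 0.322 in either direction, a limit that 4.57% of all genes passed toward the male and 2.9% toward the female library, as did 1.06% and 1.15% of those as abundant as Cdc6. Rrm2 (0.250 against 0.311, log2 -0.317), Ccna2 (-0.31) and Cenpf (-0.30) lay lowest, and Gins2 (0.14), Tyms (0.10) and Cdk1 (0.02) highest. The mitosis ratio turned to 0.12 in cells of 8000 or more UMIs, against -0.07 and -0.21 in the ranges below. With the same weights for every domain the ratios were -0.12 and -0.09. Single domains ran from -0.30 (Aldh1a2 and Tcf21) to 0.08 (Sim1 and Tbx15) in mitosis genes. Sex and library cannot be told apart here.

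RNA free in the suspension carried both lists at levels near those of cells. Barcodes of 10 to 100 UMIs gave 4.46 and 5.41 S phase and 9.58 and 10.6 mitosis UMIs per 2000. From haemoglobin in mesenchyme cells, free RNA was put at 3.52% and 4.12% of a cell's UMIs. This amounts to 0.157 and 0.223 S phase and 0.338 and 0.437 mitosis UMIs per cell, below the levels in cluster 11 (4.51 and 4.66 mitosis UMIs).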

How the data were processed

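Per the labels, tubercles were dissociated with collagenase and run as 1 male and 1 female droplet library. The authors deposited raw UMI counts for every barcode, made with Cell Ranger 3.1 on mm10, per the submitters' processing notes. Which annotation they counted on is not given in the sources used here. Gene positions come from GENCODE M21. The libraries held 130105692 and 144515562 UMIs.

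The members and lists were chosen with earlier results of these data known. Cells were clustered with scanpy 1.11.5 (30 components, 15 neighbours, Leiden resolution 1), and cell types and domains were named from marker lists. At its automatic threshold Scrublet marked 0 cells and so had not worked. No cell was removed for it, and leaving out the highest scores (13.8% and 15.0% of cells) was an alternative. Ratios are log2 of mean thinned UMIs in a group over all other mesenchyme cells. Named genes were the members with the most UMIs, the 5 largest and 3 smallest ratios in the lowest and highest groups, up to 4 genes of each other list, the 3 highest and 3 lowest sex ratios, and the 5 most and 3 least co-detected pairs. Genes of cluster 11 and cluster 12 beyond that rule were chosen after their values were seen. The counting was tested on simulated data.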

Additional observations from a re-analysis of the deposited data

Results flagged for a closer look

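S phase genes in the Sim1 and Tbx15 domain lay above other mesenchyme in the male library (log2 0.0746) and below it in the female library (-0.127). Cluster 15, one of the distal Dlx2 and Runx1 clusters, did the same, with 0.0489 and -0.0994. Each library is 1 sample, so the difference between the sexes was not tested.

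Barcodes outside the cell limits also held both lists, above the level that 3 counts would give. Barcodes of 500 to under 2000 UMIs gave 3.79 male and 4.15 female S phase UMIs and 8.10 and 7.79 mitosis UMIs per 2000. Those of 2000 or more UMIs with over 10% mitochondrial UMIs gave 4.44 and 4.65, and 6.85 and 6.67. Those with under 500 genes, in which haemoglobin took 84.1% and 85.6% of UMIs, gave 0.155 and 0.182, and 0.856 and 0.761.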

How the results depend on the processing

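No paired analysis was possible because each sex has 1 library and the labels pair no samples. Cluster 11 and the domains were compared again under each alternative. Of 194 recomputed log2 ratios, 189 kept their sign, and all 43 members stayed on the side of their own list under the 5 alternatives to the co-detection. Values follow as male, then female.

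The S phase ratio of Ogn and Foxf1 was -0.23 and -0.26. It became -0.062 and -0.077 at 4000 UMIs, -0.072 and -0.40 at most 5% mitochondrial UMIs, -0.15 and -0.19 with domains set per cell, -0.063 and -0.057 as a share of cells with at least 2 UMIs and -0.60 and -0.72 with at least 10. It was -0.17 (male) unthinned, -0.32 (female) at resolution 2 and -0.36 (female) without Nasp, Dut and Slbp. Within ranges of depth it was -0.055 and -0.057 at 4000 to under 8000 UMIs, -0.13 and -0.22 at 8000 or more and -0.19 (female) at 2000 to under 4000. Its place from the lowest of 12 moved from 3 and 1 to 5 and 6 at 4000 UMIs, 5 and 2 at most 5% mitochondrial UMIs, 5 and 5 at 2000 to under 4000 UMIs, 6 and 6 at 4000 to under 8000 and 4 (male) at 8000 or more.

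The mitosis ratio of Scx and Sox9 was -0.31 and -0.31. It became -0.20 and -0.24 at 4000 UMIs, -0.26 and -0.25 unthinned, -0.46 and 0.094 at most 5% mitochondrial UMIs, -0.72 and -0.52 at resolution 2, -0.50 (male) with domains set per cell, -0.25 and -0.28 without Hmgb2, Top2a and Ube2c, -0.23 and -0.23 at 2 UMIs and -0.44 and -0.40 at 10. By depth it was -0.25 and -0.17, -0.12 and -0.25, and -0.23 and -0.079 from the shallowest to the deepest cells. With the cell cycle genes kept in the clustering, no cluster took the name Ogn and Foxf1, so that ratio has no value. The clustering then used 1992 genes, 35 of them members, so its groups were made partly from the values compared. The mitosis ratio of Scx and Sox9 was then -2.80 and -2.75. Its place moved from 5 and 1 to 4 and 3 at 4000 UMIs, 1 and 7 at most 5% mitochondrial UMIs, and 3 and 5, 7 and 6, and 3 and 5 by depth. Without cluster 11 its ratio turned to 0.13 (female) at most 5% mitochondrial UMIs, 0.021 (male) at 2000 to under 4000 UMIs and 0.038 (female) at 8000 or more. The limit of 5% kept 5.75% and 4.40% of mesenchyme cells.

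The place of Rprm and Spock3 in mitosis genes moved from 11 to 10 and 10 at most 5% mitochondrial UMIs and without the highest doublet scores, to 7 and 8 at 2000 to under 4000 UMIs and to 12 and 12 at 8000 or more. In S phase genes it moved from 12 to 8 (male) at most 5% mitochondrial UMIs and at 8000 or more UMIs.

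The male over female ratio of S phase genes, -0.13, became -0.11 unthinned, -0.068 at most 5% mitochondrial UMIs, -0.11 with domains set per cell, -0.12 with free RNA subtracted, -0.075 at 2 UMIs, -0.18 at 10, and -0.19, -0.15 and -0.084 by depth. That of mitosis genes, -0.11, became -0.13 at 4000 UMIs, -0.10 unthinned, -0.21 at most 5% mitochondrial UMIs, -0.12 without the highest doublet scores, -0.091 with domains set per cell, -0.10 with free RNA subtracted, -0.15 without the 3 largest members, -0.13 at 10 UMIs, -0.095 with equal domain weights, and -0.072, -0.21 and 0.12 by depth. Beyond what the construction shows, the cause of these moves was not tested. Inhibitors lower by 1.5-fold fell from 2 to 1 in Ogn and Foxf1 (female) and from 4 to 2 and 2 in Scx and Sox9 at a minimum of 500 UMIs. That minimum also takes scarce genes out of the list, such as Cdkn1a (247 mesenchyme UMIs) and Cdkn2c (279). Of all genes with at least 100 UMIs, 8.08% were that much lower in Ogn and Foxf1 (female). In Scx and Sox9 9.49% and 9.47% were. In cluster 11 the S phase and mitosis ratios stayed below 0 under every alternative run for it, though their size changed. With at most 5% mitochondrial UMIs, its 14 female cells had 14.9 mitosis UMIs per cell against 17.1 in other mesenchyme. Of the 12 groups, 2 were lower. Its 21 male cells had 5.95 against 14.9, below all 12 groups.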
